A study of Mus musculus with 17 samples.

Results

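In DBA/2J mice whose tibialis anterior muscle had been injured with cardiotoxin, macrophages with high surface Ly6C were sorted on days 1, 2 and 4 after the injury, and their polyadenylated RNA was sequenced. The comparison described here is day 4 against day 1 within these Ly6C high cells, with day 2 used to place each difference in the first step (day 1 to day 2) or the second step (day 2 to day 4). All mice were males of 3 months and carried no labelled allele or treatment other than the injury, which the day 1 animals shared. Of the 17 samples, 9 were Ly6C high macrophages, 3 on each day, and Ly6C low macrophages of days 2 and 4 (3 samples each) and neutrophils of day 1 (2 samples) served as reference columns. The column labelled neutrophils also carried macrophage markers near the level of day 1 macrophages, with values given beside the results that use it. The table holds 1 value per gene and group, the authors' mean on a log2 scale of normalised reads, so no spread between samples could be computed and no test was possible; every difference below is a description of these group means. Of 38087 genes, 12391 had a value of at least 5 on day 1 or day 4 and were compared. Judged by the smallest steps between low values, the limit of 5 corresponds to between 47.8 and 60.8 reads in 8 of the 9 Ly6C high libraries. The total depth of the libraries is unknown. The labels do not say whether animals were pooled, nor which markers besides Ly6C set the sort gate.

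Cardiotoxin kills muscle fibres and leaves their stem cells in place, so that the muscle rebuilds over the following weeks. Monocytes that carry high Ly6C enter the damaged tissue first, release cytokines and chemokines and clear debris, and then turn into Ly6C low macrophages that secrete growth factors. Interleukin 1 and prostaglandins belong to the first phase of this programme, whereas Igf1, a growth factor for muscle cells, and Gdf15, a secreted member of the TGF-beta superfamily, belong to the repair phase.

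On day 4, 2182 of the 12391 genes (17.6%) were at least 2-fold higher than on day 1 and 492 (3.97%) were at least 2-fold lower, while the median difference over all genes was 0.01 on the log2 scale. At 4-fold the counts were 1201 higher and 97 lower. The split depended on scaling: 81.6% of the genes past 2-fold were higher as deposited and 62.5% after quantile normalization, which moved the median difference to -0.12. Of the 2182 higher genes, 1231 reached a value of 5 on day 4 alone, and were thus compared only because of the day on which they were high (1442 genes in all reached it on day 4 alone), whereas 80 of the 492 lower genes reached it on day 1 alone. The gene just inside the limit, ENSMUSG00000070923, had a value just above 5 on day 1 and 3.81 on day 4. Gm1673, with 2.61 on day 1 and a value just under 5 on day 4, lay just outside it.

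Most of the distance was covered after day 2. Between days 1 and 2, 348 of the 12391 genes (2.81%) were at least 2-fold higher and 135 (1.09%) lower, against 1761 (14.2%) higher and 255 (2.06%) lower between days 2 and 4. A difference was assigned to the first step when that step made 2/3 of it or more, to the second step when the first made 1/3 of it or less, and called shared in between. By this measure 1195 of the 2182 higher genes (54.8%) belonged to the second step, and a further 402 (18.4%) were lower on day 2 than on day 1 before they ended higher. Another 520 (23.8%) were shared, 57 (2.61%) belonged to the first step and 8 (0.367%) overshot, standing higher on day 2 than on day 4. Of the lower genes 242 of 492 (49.2%) were in the second step, with 34 (6.91%) that first went the other way, 175 (35.6%) shared, 28 (5.69%) in the first step and 13 (2.64%) that were lowest on day 2. Counting genes that first went the other way with the second step, it held 73.2% of higher and 56.1% of lower genes as deposited. These shares were 71.3% and 60.9% after median-ratio rescaling, but 72.2% and 73.8% after quantile normalization. The smaller share among lower genes thus held on the deposited and median-ratio scales and not after quantile normalization. The median higher gene moved by 0.42 in the first step and 1.70 in the second, and the median lower gene by -0.46 and -0.97. The second step spans more days than the first, so the steps are not rates.

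**Figure D1:**
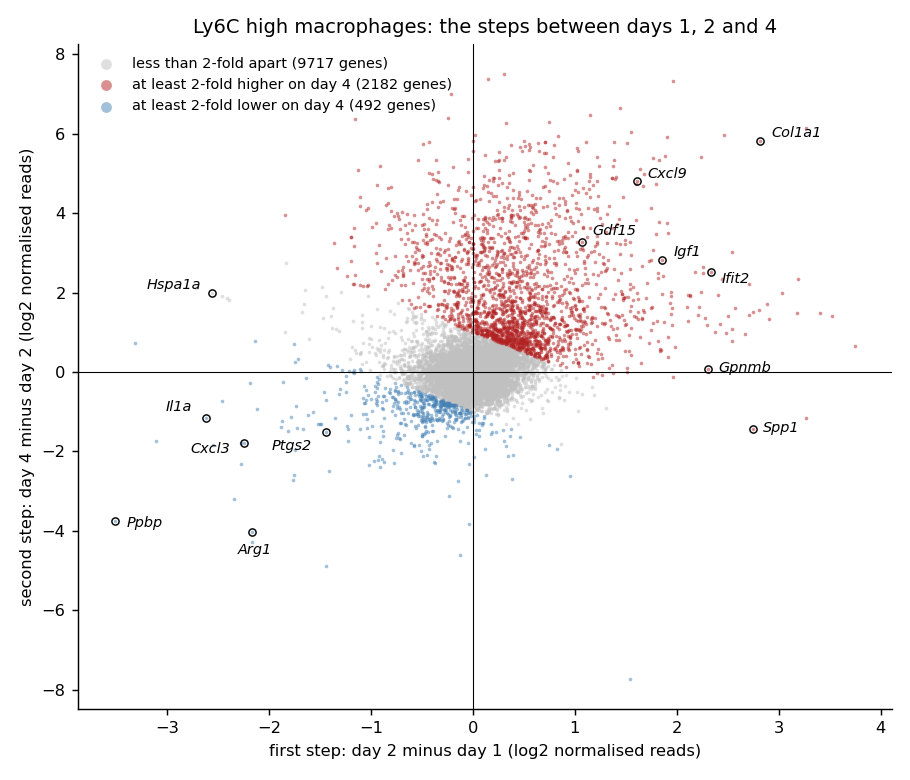
First step (day 2 minus day 1) against second step (day 4 minus day 2) for the 12391 genes compared in Ly6C high macrophages, in log2 normalised reads; each point is a gene, red at least 2-fold higher on day 4 than on day 1 (2182), blue at least 2-fold lower (492) and grey neither. The red cloud extends up the vertical axis, with Col1a1 and Cxcl9 far up, while Il1a lies mostly along the horizontal axis and Spp1 is higher after the first step and lower after the second.

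The sorted cells carried macrophage markers on every day, but not all of these markers kept their level. Csf1r, the receptor for the growth factor of macrophages, stood at 13.52 on day 1, 13.52 on day 2 and 14.06 on day 4. Cd68, a lysosomal glycoprotein of macrophages, stood at 13.44, 13.70 and 13.44. The markers Emr1 (12.34, 12.51 and 12.86) and Mertk (8.60, 8.98 and 9.80) were higher on day 4, Mertk by more than 2-fold. In contrast, the marker Itgam was lower, at 14.80, 14.14 and 12.81, a log2 difference of -1.99. Fcgr1, a receptor for IgG, stood at 11.65, 11.60 and 10.71, just short of 2-fold lower. Ly6c2, which encodes the sorted antigen, stood at 9.65, 9.87 and 10.56 in the Ly6C high columns, against 6.16 on day 2 and 4.64 on day 4 in the Ly6C low columns. Ly6c2 has a near-identical neighbour, Ly6c1, and reads may be split between them. Markers of other cells were also present, and the day 4 Ly6C high column held the highest summed level of fibroblast markers of all 6 columns (93435 normalised reads over 20 genes, against 5025 on day 1); these values are given in full further down and beside the groups they touch.

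Il1a and Ptgs2, taken as genes of the inflammatory phase, were lower on day 4, and Igf1 and Gdf15, taken as genes of the repair phase, were higher. Il1a (chr2:129299610-129309972, GRCm38), which encodes the alarm cytokine interleukin 1 alpha, stood at 12.15 on day 1, 9.54 on day 2 and 8.37 on day 4. The 13.8-fold lower day 4 value was thus mostly reached by day 2, with steps of -2.62 and -1.16. Ptgs2 (chr1:150100031-150108227), the inducible cyclooxygenase that makes the precursor of the prostaglandins, stood at 14.58, 13.14 and 11.64, a 7.66-fold difference shared almost evenly by the steps (-1.44 and -1.50). In the opposite direction, Igf1 (chr10:87858265-87937042) stood at 5.04, 6.90 and 9.72, 25.6-fold higher on day 4, with steps of 1.86 and 2.82. Gdf15 (chr8:70629393-70632456) stood at 4.63, 5.70 and 8.96, 20.2-fold higher, and belonged to the second step (1.07 and 3.27). Ly6C low macrophages, which had Igf1 at 9.26 on day 2 and 10.85 on day 4, were above the Ly6C high cells of the same day for this gene, and the same held for Gdf15, at 6.21 and 10.06. High Igf1 was not confined to the later days. The day 1 column labelled neutrophils, which also carried macrophage markers, had Igf1 at 9.95, above Ly6C high cells of day 4. Gdf15 was at 6.41 in that column, above Ly6C high cells of day 1. Pparg, a lipid-sensing nuclear receptor, stood at 6.29, 7.93 and 8.81 in the Ly6C high cells, and its difference of 2.53 was shared.

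**Figure D2:**
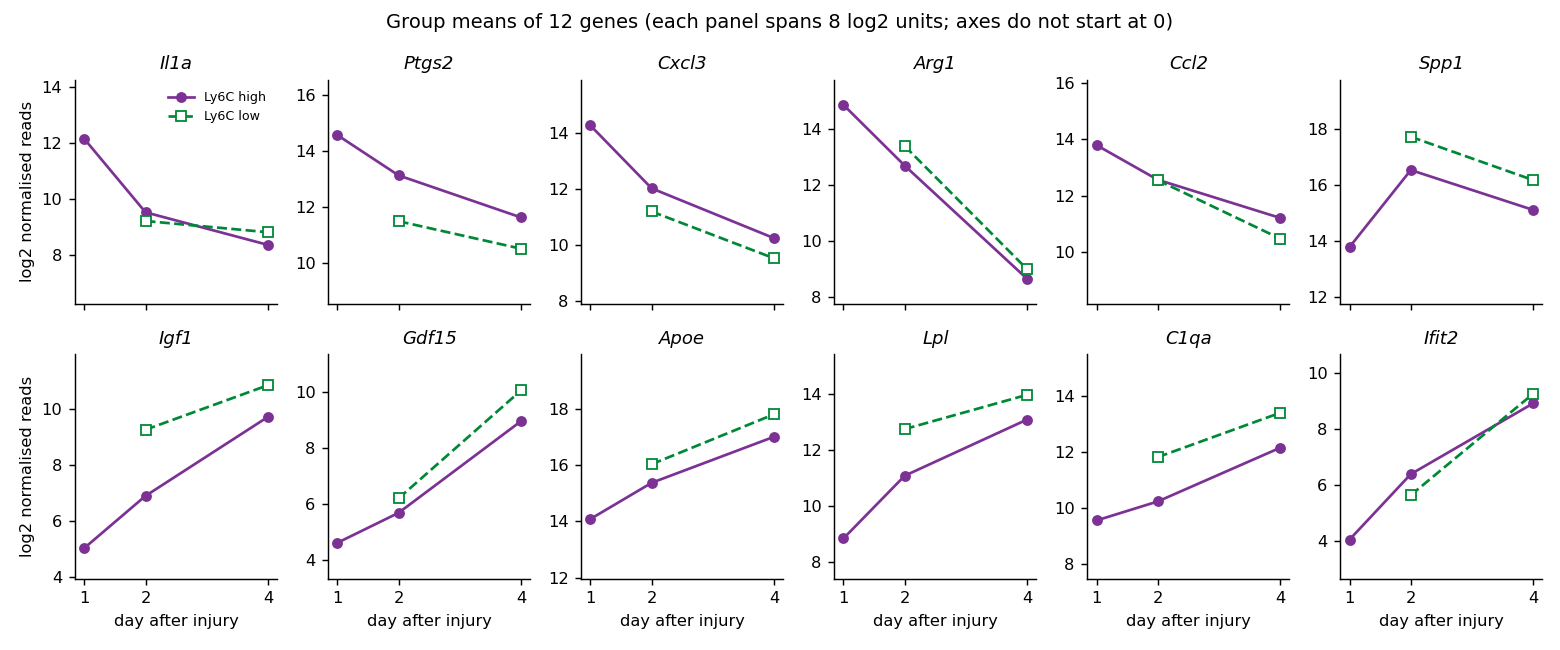
Group means of 12 genes in log2 normalised reads by day after injury, in Ly6C high macrophages (filled circles, days 1, 2 and 4) and Ly6C low macrophages (open squares, days 2 and 4); every panel spans the same height, and points have no error bars because the table gives group means alone. Il1a, Ptgs2, Cxcl3, Arg1 and Ccl2 descend, Igf1, Gdf15, Apoe, Lpl, C1qa and Ifit2 climb, and Spp1 peaks on day 2.

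Inflammatory cytokines were lower on day 4 as a group. Of 15 compared of 20 listed, 8 were at least 2-fold lower and 1 higher, and the list's median difference was -1.28, against 0.01 over all genes. Il1b, the main secreted form of interleukin 1, stood at 15.85, 14.63 and 13.19, a shared difference of -2.67. Its natural antagonist Il1rn was at 14.64 on day 2 and 13.63 on day 4, lower than on day 1 by a log2 difference of -1.37 that lay mostly in the second step. Il1rn opposes inflammation but is counted among the 8 lower members of this list. The gp130 ligands Lif (10.24, 7.79 and 7.05), Osm (12.21, 11.34 and 10.18) and Clcf1 (10.43, 9.82 and 9.15) were lower too, Lif in the first step. Il23a, a subunit of interleukin 23, was at 6.75, 4.21 and 2.37, below the limit of 5 from day 2 onward. The granulocyte growth factor Csf3 stood at 8.93, 7.12 and 5.65. Tnf, at 12.21, 11.55 and 11.24, and Il10, at 10.99, 10.30 and 10.09, stayed just short of 2-fold. Il6 went against the list, at 8.24, 6.40 and 9.14, lowest on day 2. The single higher member was Il15, a cytokine that sustains T and NK cells, at 5.38, 5.58 and 6.45.

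CC chemokines, which draw monocytes, had a list median of -2.29, with 7 of 11 lower and 1 higher. Ccl2, the main ligand of the monocyte receptor Ccr2, stood at 13.80, 12.56 and 11.20. Ccl7, another Ccr2 ligand, followed the same course at 13.58, 12.69 and 11.07. Ccl6 (15.44, 14.41 and 12.08) and Ccl9 (14.84, 14.23 and 12.44) were lower mainly in the second step, Ccl24 (11.61, 10.38 and 8.66) and Ccl12 (8.95, 7.75 and 6.66) in both. Ccl5, a T cell attractant, went the other way, at 4.00, 4.76 and 7.28. The receptor Ccr2 itself differed little (11.85, 12.08 and 11.49), whereas Ccr1, a receptor for Ccl6 and Ccl9 among others, was at 12.05, 11.58 and 10.04.

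CXC chemokines went both ways: 6 of 12 were lower and 5 higher, with a list median of -0.29 that hides the split. The lower ones included members that recruit neutrophils, and the higher ones included those that interferon induces. Cxcl3 stood at 14.28, 12.03 and 10.25, Cxcl2 at 15.40, 14.51 and 13.59, and Cxcl1 at 14.03, 13.09 and 12.84. These neutrophil attractants covered most or a large part of their distance by day 2, as did Cxcl5, which was at 10.09, 6.78 and 7.50 and so lowest on day 2. The platelet-type chemokines Ppbp (13.81, 10.30 and 6.54) and Pf4 (14.01, 12.49 and 11.18) were lower as well. The Ppbp difference, 154-fold, had the greatest size among the named lower genes, and Ppbp and Pf4 also define platelets, whose other markers Gp9 (0.35, 0.18 and 0.14) and Itga2b (3.09, 2.79 and 4.28) were near 0 or low; the part of platelet RNA in this result was not tested. In the opposite direction stood the ligands of Cxcr3, Cxcl9 (1.94, 3.55 and 8.36), Cxcl10 (6.34, 6.80 and 8.66) and Cxcl11 (1.44, 3.21 and 6.27). Cxcl12, a stromal chemokine, was at 7.49, 7.88 and 10.86, and fibroblast markers were highest in the same column. Cxcl16 stood at 11.02, 10.87 and 12.34.

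Cxcl3 and Cxcl1 are shown with the 250 bases before their start sites (RefSeq, GRCm38.p6) because they are lower on day 4 and hold a kappa B motif, the site bound by NF-kappa B, the factor that switches on inflammatory genes. The Cxcl3 stretch is chr5:90785851-90786100 and the Cxcl1 stretch chr5:90890995-90891244, both on the plus strand, written 5′ to 3′ with the motif (GGG, any 2 bases, TTTCC) or its reverse complement in capitals.
Cxcl3: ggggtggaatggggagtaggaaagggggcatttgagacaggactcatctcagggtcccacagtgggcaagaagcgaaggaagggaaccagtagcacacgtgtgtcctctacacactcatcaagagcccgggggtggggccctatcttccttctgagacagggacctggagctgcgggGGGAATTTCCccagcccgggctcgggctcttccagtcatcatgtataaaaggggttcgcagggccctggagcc
Cxcl1: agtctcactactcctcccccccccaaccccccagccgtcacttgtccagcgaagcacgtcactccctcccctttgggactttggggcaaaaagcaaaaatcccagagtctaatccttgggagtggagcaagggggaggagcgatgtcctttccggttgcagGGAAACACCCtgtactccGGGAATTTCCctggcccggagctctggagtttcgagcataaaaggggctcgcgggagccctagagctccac
The motif began 73 bases before the start site in Cxcl3, and 89 and 71 bases before it in Cxcl1, where the first copy lies on the opposite strand. Searched on both strands of windows from 250 bases before to 50 after the start, it was found in 3 of 10 windows of the CXC chemokine list (30.0%; Cxcl1, Cxcl2 and Cxcl3), 4 of 14 windows of the cytokine list (28.6%; Csf1, Il1rn and Il6) and 1.63% of all 32851 windows. All 3 CXC genes with a match were lower, as were 2 of 6 compared without one, but of the 3 cytokine genes with a match only Il1rn was lower. A match describes the letters and shows no binding.

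The brakes on inflammatory signalling were lower with their targets or differed little: of 20, 4 were lower and 1 higher, with a median of -0.73. Nfkbia, the inhibitor that holds NF-kappa B in the cytoplasm and is itself its target, stood at 14.25, 13.88 and 13.10. Socs3, which ends gp130 signalling, was at 13.32, 12.65 and 12.12, and Irak3, an inhibitor of Toll-like receptor signalling, at 9.96, 9.13 and 8.63. Tnfaip3, the deubiquitinase A20, was at 13.72, 13.30 and 13.04 and remained under 2-fold. Atf3, a stress-induced repressor, was the member higher on day 4, at 11.50, 11.96 and 12.78. Among Toll-like receptors and their partners, Cd14, the co-receptor for bacterial lipopolysaccharide, stood at 16.56, 16.03 and 15.02 and Tlr4 at 9.71, 9.05 and 8.26, while the nucleic acid sensors Tlr3 (2.80, 4.19 and 6.15) and Tlr9 (7.88 on day 1 and 9.26 on day 4) and their chaperone Unc93b1 (11.82, 12.14 and 12.95) were higher.

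Of 21 eicosanoid genes, 5 were lower (23.8%, against 3.97% of all genes) and 4 higher (19.0%, against 17.6%), and 12 were neither. Besides Ptgs2, the lower members were Pla2g4a, the phospholipase that frees arachidonic acid (9.22, 8.57 and 7.65), Ptges, the inducible prostaglandin E synthase (8.47, 6.75 and 7.08), the prostaglandin E receptor Ptger2 (8.67, 8.17 and 6.90) and the leukotriene B4 receptor Ltb4r1 (10.29, 10.06 and 6.95). Ptges had its lowest value on day 2, while Ltb4r1 lay level until day 2. Higher were Hpgds, which makes prostaglandin D2 (7.16, 8.65 and 9.83), and Hpgd, which breaks prostaglandins down (0.11, 1.48 and 5.11). Alox15 (4.95, 4.37 and 5.99) and Pla2g15 (9.75, 10.47 and 10.90) completed the higher set. Hpgd passed the limit through day 4 alone.

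Heat shock genes were distinguished by a low on day 2. Of 15, 5 were at least 2-fold lower in the first step and 4 at least 2-fold higher in the second, so that only 2 differed between days 1 and 4; the median steps were -0.86 and 0.48. Hspa1a stood at 14.29, 11.73 and 13.73 and Hspa1b at 14.40, 11.69 and 13.81, and these near-identical copies of the inducible Hsp70 gene may share reads. Hsph1 (12.22, 10.37 and 11.38) and Dnaja1 (11.43, 10.33 and 10.82), partners of Hsp70, had the same shape. In Ly6C low cells, which have no day 1 column, Hspa1a was at 11.54 on day 2 and 13.14 on day 4, but Hsph1 was at 10.23 and 10.44, and the list's median difference between those days was 0.02, with 3 of 15 at least 2-fold higher. Hspb1, a small heat shock protein, was at 6.19, 5.03 and 8.21 and was the member higher on day 4. A heat shock element (GAA, TTC and GAA with any 2 bases between each) was present in 4 of 16 windows of this list (those of Hspd1, Hspe1 and Hsph1), against 0.603% of all windows. Immediate early genes, which respond to handling as well as to signals, had median steps of -0.08 and 0.43, and 0 of 18 were 2-fold lower in the first step. Fos, slightly lower on day 2, was at 12.75, 12.61 and 13.19 and Jun at 11.72, 11.77 and 12.78. The part of handling in either list was not tested. Of 18, 5 were higher on day 4 (27.8%, against 17.6% of all genes) and 1 lower (5.56%, against 3.97%). Among the higher ones were Egr1 at 10.08, 9.97 and 12.19 and Myc at 8.21, 8.05 and 9.83.

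Secreted repair factors did not move as 1 group: 10 of 26 were higher and 8 lower, with a median of 0.59. Next to Igf1 and Gdf15, the higher members included Spp1, osteopontin, which overshot at 13.79, 16.54 and 15.11 and so was highest on day 2. Its Ly6C low values, 17.72 and 16.18, were also higher on day 2. Gas6, the bridging ligand of the Mertk and Axl receptors, stood at 9.38, 10.33 and 11.23, Pdgfb at 6.44, 6.26 and 8.29, Bmp2 at 4.12, 4.52 and 6.58, and Vegfb at 5.87, 6.99 and 7.53. Vegfb was the member that belonged to the first step without overshoot. The lower members were led by the epidermal growth factor receptor ligands Ereg (9.55, 6.45 and 4.72) and Areg (10.91, 9.16 and 6.57). Thbs1, a matricellular protein that activates TGF-beta, stood at 16.50, 15.71 and 13.76, Vegfa, the main angiogenic factor, at 12.73, 12.26 and 11.09, and Tgfbi at 15.24, 15.30 and 13.69. Ligands of the epidermal growth factor receptor were thus lower while Igf1 was higher, and Tgfb1 itself hardly differed (12.25, 12.16 and 12.09).

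Proteins that bind insulin-like growth factors, and Igf2 itself, were mostly higher with Igf1. Of 6 compared of 7 listed, 5 were higher and none lower, with median steps of 0.05 and 3.24. Igfbp4 stood at 9.21, 9.84 and 11.52, Igfbp7 at 8.20, 8.35 and 11.63, and Igfbp5 at 6.10, 6.20 and 9.40. All 5 belonged to the second step or went back first. Igfbp5 and Igfbp7 are abundant in stromal cells, whose markers were highest in the same column, and their part in this result was not tested.

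The complement list had a median difference of 2.34, with 7 of 13 higher and 3 lower, and all 7 higher members belonged to the second step. The subunits of C1q, the opsonin of dying cells, moved together: C1qa stood at 9.55, 10.22 and 12.14, C1qb at 9.07, 9.97 and 12.04, and C1qc at 9.14, 9.94 and 11.95. Itgax, a subunit of the complement receptor CR4, was at 9.33, 9.94 and 11.66, while Itgam, a subunit of CR3, was lower at 14.80, 14.14 and 12.81. The receptor C5ar1 (11.99, 11.84 and 10.41) and properdin, Cfp (13.36, 12.89 and 11.53), were lower as well. C4b (5.84, 6.28 and 8.68), C2 (5.49, 5.90 and 8.18) and Cfb (7.12, 7.50 and 9.73) are also made by stromal cells.

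Receptors and bridges for dying cells were higher in 7 of 15 and lower in 1. Axl, a receptor tyrosine kinase for Gas6-coated cells, stood at 6.78, 7.79 and 11.92, 35.2-fold higher, and Mertk, its relative, at 8.60, 8.98 and 9.80. Mfge8, a bridge to phosphatidylserine, was at 6.56, 7.13 and 9.62. Axl is also expressed by fibroblasts, and its Ly6C low values, 6.68 on day 2 and 11.31 on day 4, ran a similar course. The scavenger receptors went the other way, with 5 of 10 lower and 1 higher: Msr1 stood at 13.94, 13.53 and 11.74, Cd36 at 13.78, 13.02 and 12.53, Cd163, the haemoglobin scavenger, at 11.32, 10.34 and 8.98, and Mrc1, the mannose receptor, at 14.72, 14.33 and 12.84.

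Of the genes of cholesterol handling, 8 of 15 in the LXR list and 16 of 23 in the synthesis list were past 2-fold in neither direction. Of the 15 compared genes of the LXR list, the sterol-sensing receptors and their targets, 7 were higher and none lower, with a median of 0.76. Abcg1, an exporter of cholesterol, stood at 8.05, 8.94 and 11.27, Apoe, its acceptor, at 14.09, 15.38 and 17.02, and Pltp, which transfers phospholipid, at 8.48, 9.62 and 12.56. Abca1, the other main exporter, did not follow (13.61, 12.75 and 13.47) and was lowest on day 2. The receptor Nr1h3 was at 8.56, 8.79 and 9.32. Of 23 synthesis genes, 6 were lower and 1 higher, and 8 were at least 2-fold lower in the second step. Sqle (8.06, 8.53 and 6.90) and Idi1 (7.43, 7.82 and 5.74), enzymes of the pathway, were each higher on day 2 than on day 1 before they were lower on day 4. The list's median steps, 0.30 and -0.75, show the same turn. The exception was Dhcr7, at 5.76, 6.87 and 7.10.

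Lipid-associated genes that were higher had moved in the first step at least in part. Of 13, 6 were higher and none lower, and 3 of the 6 belonged to the first step and 3 were shared, with median steps of 0.63 and 0.02. Gpnmb, a glycoprotein of lipid-laden macrophages, stood at 8.21, 10.51 and 10.60, so its first step of 2.31 was followed by 0.09. Atp6v0d2, a subunit of the proton pump, was at 5.55, 8.45 and 9.80, while the other 15 pump subunits stayed within 2-fold. Lpl, lipoprotein lipase, stood at 8.84, 11.08 and 13.08 and Trem2, a lipid-binding receptor, at 10.78, 11.41 and 12.14. Among PPAR targets, 4 of 19 were higher (21.1%) and 1 lower (5.26%), shares near the 17.6% and 3.97% of all genes. Fabp4 stood at 7.73, 9.19 and 11.16 and Angptl4 at 4.78, 5.62 and 9.83, whereas the enzymes of fatty acid oxidation such as Acadm (8.29, 8.48 and 8.76) and Hadha (10.55, 10.58 and 10.51) stayed within 2-fold. In Ly6C low cells Fabp4 was at 10.07 on day 2 and 9.21 on day 4, and Angptl4 at 5.70 and 8.44. Endothelial markers were highest in the day 4 Ly6C high column, and their part in the Fabp4 result was not tested. Bhlhe41, a transcription factor of mature macrophages, was another first-step gene, at 5.04, 7.47 and 8.68, as was the adhesion molecule Cadm1, at 7.24, 9.15 and 10.04. Both lay close to the bound of 2/3, with 0.667 and 0.685 of the difference made in the first step.

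**Figure D3:**
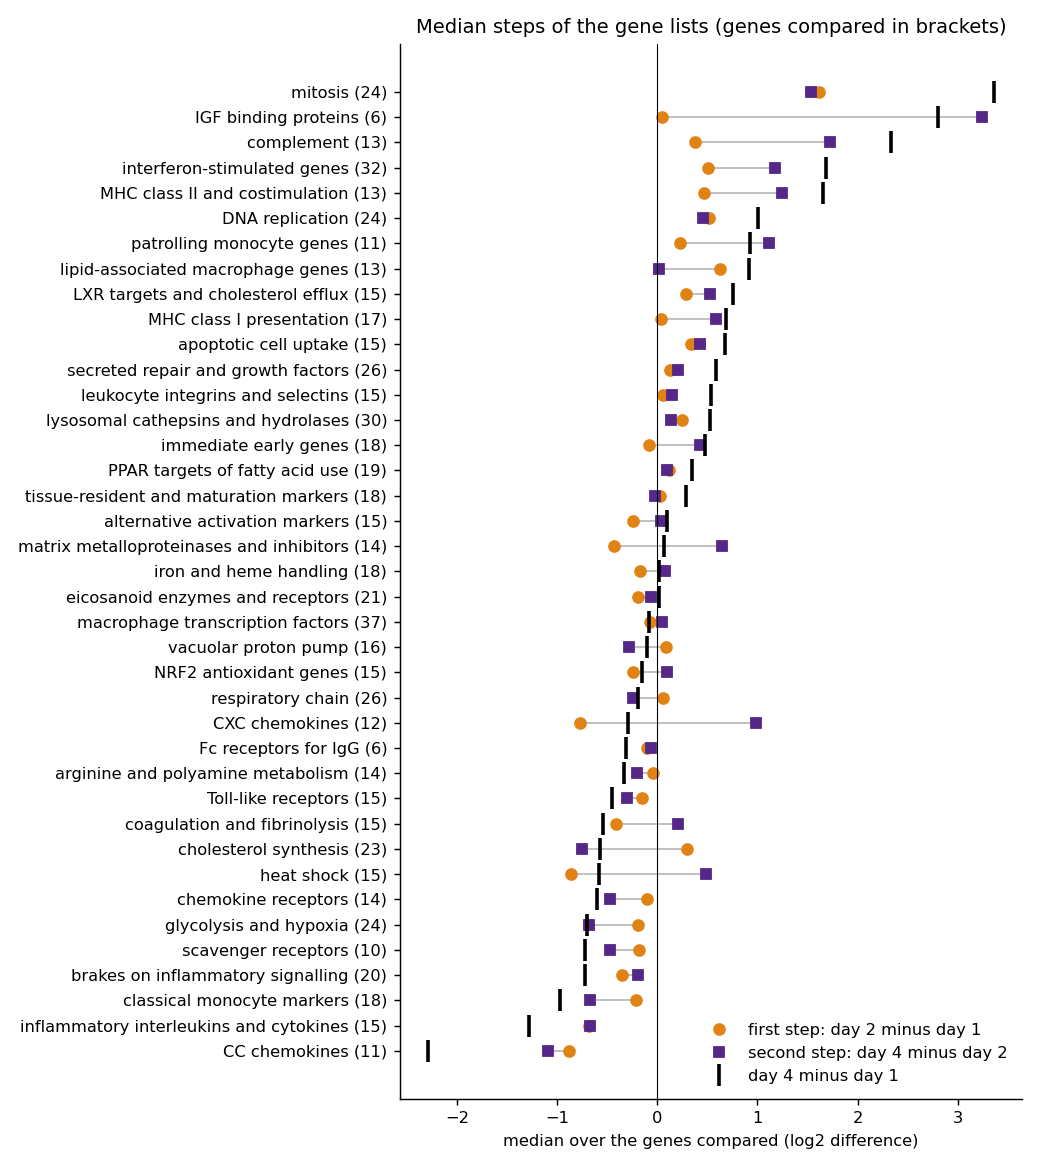
Median log2 difference over the compared genes of each list in Ly6C high macrophages: circles for day 2 minus day 1, squares for day 4 minus day 2, and bars for day 4 minus day 1, with the number of genes compared in brackets. Heat shock genes and CXC chemokines have steps of opposite sign, as do cholesterol synthesis genes in the other order, and mitosis genes (1.62 and 1.54) moved about equally in both steps.

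Marks of the incoming monocyte were in part lower on day 4. Whether the same cells changed or the mix of sorted cells did was not tested. Of 18 classical monocyte markers, 9 were lower and 1 higher, with a median of -0.97. Vcan, a large proteoglycan, stood at 14.21, 13.35 and 11.07, F10, coagulation factor X, at 12.34, 11.87 and 10.32, and Chil3, a chitinase-like protein, at 10.24, 9.36 and 7.88. Plac8 (10.98, 10.90 and 11.18) kept to within 2-fold, as Ly6c2 did. Of 11 genes of patrolling monocytes, 5 were higher and none lower: Cx3cr1, the fractalkine receptor, stood at 6.66, 8.60 and 10.35, Ace at 7.01, 7.53 and 9.97 and Spn at 6.20, 6.69 and 7.81. Fabp4, described above, was also among the 5. Nr4a1, the transcription factor on which these monocytes depend, stayed level at 12.34, 12.28 and 12.34. Of 18 markers of resident or mature macrophages, 7 were higher (38.9%, against 17.6% of all genes) and 4 lower (22.2%, against 3.97%). Siglec1 (6.29, 7.86 and 10.01) and Cd5l (3.52, 5.35 and 5.88) were higher, and Cd163, Mrc1, Cd14 and F13a1 (14.18, 14.21 and 12.74) lower. Lyve1 peaked on day 2 (3.26, 6.53 and 5.36).

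Arg1 (chr10:24915221-24927484), the arginase used as a marker of alternative activation, was lower by 73.8-fold, at 14.86, 12.70 and 8.66, and its Ly6C low value of 13.40 on day 2 was followed by a step of -4.40. In both populations Arg1 was far lower on day 4 than on day 2. The alternative activation list as a whole had 4 of 15 lower (26.7%, against 3.97% of all genes) and 2 higher (13.3%, against 17.6%). The higher ones were Mgl2 (5.62, 5.66 and 6.87) and Socs2 (5.22, 4.19 and 6.38). Of 14 genes of arginine and polyamine metabolism 4 were lower and none higher. Nos2, the enzyme that competes with Arg1 for arginine, was near the limit of 5 throughout (4.62, 4.06 and 5.46).

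Interferon-stimulated genes held the greatest number of higher members of any list: 27 of 32, none lower, with a median of 1.69 and median steps of 0.50 and 1.17. Ifit2, which blocks translation of viral RNA, stood at 4.06, 6.40 and 8.92, Ifit3 at 4.44, 6.25 and 8.63, and Ifit1 at 4.65, 5.74 and 7.34. Mx1, an antiviral GTPase, was at 6.26, 7.30 and 8.77, Rsad2, viperin, at 8.04, 8.98 and 10.01, and Irf7, the factor that amplifies interferon production, at 9.05, 9.63 and 11.13. For 14 of the 27 the difference was shared by the steps and for 13 it belonged to the second. The guanylate-binding proteins, which interferon gamma induces most strongly, were in the latter set: Gbp2 stood at 7.26, 7.18 and 9.57 and Gbp5 at 6.77, 5.93 and 8.16. The 5 members under 2-fold were Oas1a, Oas2, Irf9, Ifi35 and Zbp1. In Ly6C low cells 26 of the 32 were at least 2-fold higher on day 4 than on day 2. Markers of plasmacytoid dendritic cells, which make interferon, were also higher on day 4 (9 of 12, with Siglech at 6.65, 7.03 and 9.51 in the Ly6C high columns), but in the Ly6C low columns Siglech was at 3.31 and 3.99. Their part in the interferon result was not tested. The Ifit, Oas and Gbp genes have close paralogs, so reads may be assigned to the wrong member.

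Ifit1, Ifit3 and Gbp2 are shown because they hold the interferon-stimulated response element, a motif known from genes that interferon induces. The stretches are the 250 bases before the start sites (RefSeq, GRCm38.p6, plus strand), at chr19:34640639-34640888 for Ifit1, chr19:34583279-34583528 for Ifit3 and chr3:142620413-142620662 for Gbp2, with the motif (TTTC, any 2 bases, TTTC) or its reverse complement in capitals.
Ifit1: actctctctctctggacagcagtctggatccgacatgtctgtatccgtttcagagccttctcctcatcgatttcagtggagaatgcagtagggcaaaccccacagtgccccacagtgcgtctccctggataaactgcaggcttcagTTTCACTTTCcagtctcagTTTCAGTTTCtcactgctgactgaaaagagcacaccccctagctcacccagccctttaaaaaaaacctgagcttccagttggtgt
Ifit3: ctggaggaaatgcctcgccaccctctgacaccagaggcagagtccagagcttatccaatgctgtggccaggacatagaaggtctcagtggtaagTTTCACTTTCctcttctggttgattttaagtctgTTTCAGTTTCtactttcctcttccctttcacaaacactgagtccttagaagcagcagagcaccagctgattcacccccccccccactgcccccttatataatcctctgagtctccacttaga
Gbp2: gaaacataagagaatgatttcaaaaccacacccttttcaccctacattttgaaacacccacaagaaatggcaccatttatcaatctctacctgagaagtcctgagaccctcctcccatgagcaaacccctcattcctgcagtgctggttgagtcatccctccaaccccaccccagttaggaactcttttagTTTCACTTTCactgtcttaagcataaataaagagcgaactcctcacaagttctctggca
Ifit1 and Ifit3 hold 2 copies each, which begin 104 and 85 bases before the start in Ifit1 and 156 and 122 bases before it in Ifit3, and Gbp2 holds 1 copy 59 bases before it. Of the 27 windows of the list, 14 (51.9%) held the motif, against 3.44% of all 32851 windows. Of the 14 genes with a match 13 were at least 2-fold higher on day 4, and of the 10 genes with a window and no match 8 were, so the match did not separate higher members from the others.

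Antigen presentation by MHC class II was higher, with 10 of 13 genes higher and 1 lower and a median of 1.66. Ciita, the master regulator of the class II genes, stood at 5.96, 6.80 and 8.62, H2-Aa at 11.06, 11.62 and 13.29, and the invariant chain Cd74 at 13.92, 14.38 and 15.86. The costimulator Cd80 was the member lower on day 4 (10.81, 10.29 and 9.42), and Cd86 was at 12.16, 11.89 and 11.60. Class I genes moved less, with a median of 0.69 and 2 of 17 past 2-fold, both higher (11.8%, against 17.6% of all genes). These were H2-T23 (9.49, 9.69 and 11.10) and the peptide transporter Tap1 (8.51, 8.94 and 9.94). Conventional dendritic cells, which carry much class II, had 6 of 11 markers higher, among them Flt3 (5.82, 6.32 and 7.84), and their summed level was 1204 on day 1, 1276 on day 2 and 2807 on day 4. Their part in the class II result was not tested.

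Most mitosis genes and 12 of 24 replication genes were higher on day 4, and 20 mitosis and 5 replication genes were at least 2-fold higher in the first step. Of 24 mitosis genes compared 23 were higher and none lower, 19 with a shared difference, but only 4 had a value of at least 5 on both days. Top2a, which untangles DNA, stood at 5.69, 7.35 and 8.72, Ccnb2, a mitotic cyclin, at 3.66, 5.16 and 7.04, Birc5, survivin, at 2.36, 5.17 and 6.72, and Mki67 at 8.93, 8.88 and 10.23. The Ly6C low cells were above the Ly6C high cells of day 2 for each of these, with Top2a at 9.19 and Birc5 at 7.31. Among the replication genes, the helicase subunit Mcm6 stood at 6.16, 7.66 and 8.20 and Rrm2, a subunit of ribonucleotide reductase, at 4.26, 5.76 and 6.96. In Ly6C low cells none of 25 replication genes was 2-fold higher on day 4 than on day 2, with a median of -0.41, whereas 9 of 25 mitosis genes were, with a median of 0.85.

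Metabolic lists moved less. Of 24 genes of glycolysis and the hypoxia response 7 were lower and none higher, all 7 in the second step, with a median of -0.70. The glucose transporter Slc2a1 stood at 11.10, 10.95 and 9.81, pyruvate kinase Pkm at 14.28, 14.09 and 12.82, Eno1 at 11.83, 11.43 and 10.26, and the lactate exporter Slc16a3 at 11.87, 12.06 and 10.55. Hif1a, the hypoxia-inducible factor that drives several of them, was at 13.48, 12.98 and 11.97. None of 26 respiratory chain genes was past 2-fold, and their median was -0.19. Lysosomal hydrolases were higher in 7 of 30 (23.3%) and lower in 1 (3.33%), shares near the 17.6% and 3.97% of all genes. Lipa, the acid lipase, was at 10.75, 11.36 and 12.27, and Ctsc, the lower one, at 14.52, 14.17 and 13.36. Of 15 NRF2 antioxidant genes 2 were higher (13.3%) and 1 lower (6.67%), also near the shares of all genes. The lower one, the cystine importer Slc7a11, belonged to the first step (12.41, 10.96 and 10.26), and the iron exporter Slc40a1 was higher in the second (5.43, 5.05 and 7.59).

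Genes that act on matrix and clotting went both ways. Of 14 metalloproteinases and inhibitors, 6 were higher (42.9%, against 17.6% of all genes) and 5 lower (35.7%, against 3.97%). Mmp12, the macrophage elastase, stood at 7.84, 8.36 and 10.90 and Timp2 at 9.79, 11.17 and 12.24, while Mmp9 (10.02, 8.29 and 7.43), Mmp19 (14.32, 13.90 and 12.67), Adam8 (14.08, 13.82 and 12.21) and Timp1 (11.48, 10.74 and 9.16) were lower. Mmp2 (4.17, 4.72 and 10.30) and Timp3 (5.48, 4.96 and 8.03) are stromal products. Serpinb2, an inhibitor of urokinase, was at 11.65, 9.30 and 6.10, 46.8-fold lower.

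Of 37 macrophage transcription factors, 8 were higher (21.6%, near the 17.6% of all genes) and 3 lower (8.11%, against 3.97%), with a median of -0.08. Spi1, the lineage factor PU.1, stood at 12.17, 12.17 and 11.94 and Cebpb at 13.40, 13.25 and 12.47. The higher ones included Irf7, Irf8 (10.30, 10.29 and 11.30) and Tfeb, a regulator of lysosomal genes (7.75, 8.14 and 8.76). Hif1a, Tfec (9.16, 8.13 and 7.54) and Nr4a2 (11.96, 11.89 and 10.82) were the lower ones. The NF-kappa B subunits Nfkb1 (12.98, 12.29 and 12.34) and Rel (11.00, 10.55 and 10.43) stayed within 2-fold.

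Receptors that guide and anchor the cells were called in both directions. Of 14 chemokine and chemoattractant receptors, 5 were lower (35.7%, against 3.97% of all genes) and 3 higher (21.4%, near the 17.6% of all genes). The formyl peptide receptors Fpr1 (8.35, 6.86 and 5.55) and Fpr2 (9.95, 9.06 and 8.12), which sense bacterial and mitochondrial peptides, were lower. Cxcr3 (1.55, 2.73 and 5.20), the receptor of the induced Cxcl9 family, was higher. Ccr9, also higher (5.63, 5.99 and 8.51), is among the plasmacytoid dendritic cell markers. Of 15 integrins and selectins, 5 were higher (33.3%) and 2 lower (13.3%), with Itga6, a laminin receptor, as a first-step member (9.12, 10.35 and 10.68) and Itga9 as a second-step one (7.44, 7.56 and 9.75). Itgb7 was lower, at 11.23, 11.11 and 9.85. None of the 6 receptors for IgG was past 2-fold, and Fcgr1 stood at 11.65, 11.60 and 10.71. Calls were equal in number in each direction for Toll-like receptors and their partners (3 of 15, 20.0%), iron genes (3 of 18, 16.7%) and coagulation genes (4 of 15, 26.7%). Over all genes 17.6% were higher and 3.97% lower. The lower shares of these lists were thus above that of all genes, while the higher shares of the Toll-like and iron lists were near it.

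**Figure D4:**
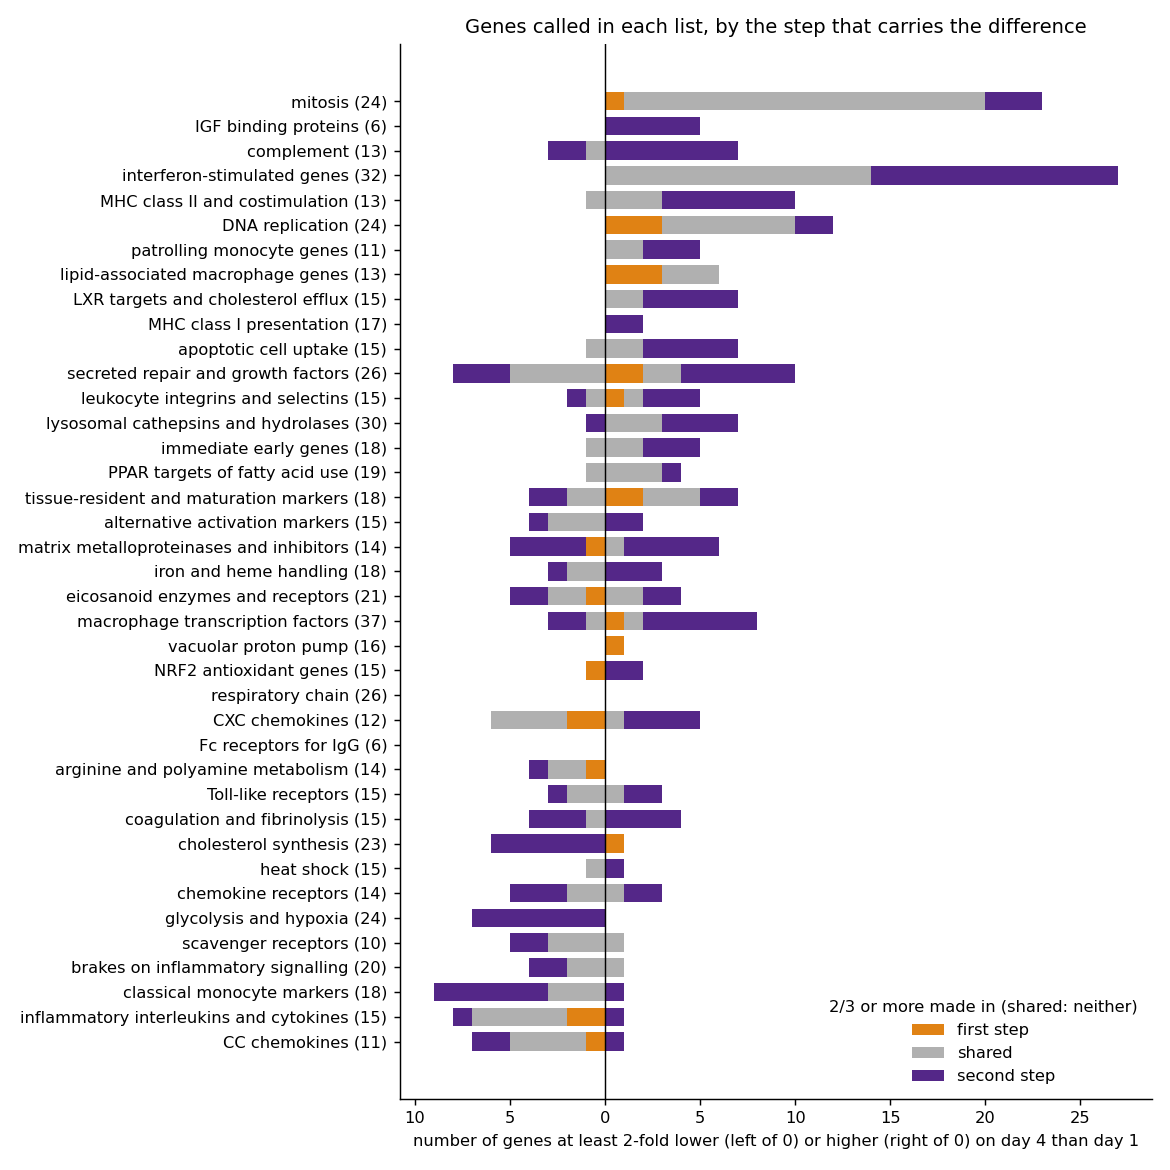
Number of genes at least 2-fold higher (right of 0) or lower (left of 0) on day 4 than on day 1 in each list, coloured by the step that made 2/3 or more of the difference, grey where neither did; the genes compared are in brackets. All 7 glycolysis genes and all 6 cholesterol synthesis genes that were lower belong to the second step, and lipid-associated genes hold first-step and shared members alone.

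Markers of cells other than macrophages were highest in the day 4 Ly6C high column for most lists. Of 20 fibroblast markers 18 were at least 2-fold higher than on day 1, all in the second step, and 11 of the 20 had a value of at least 5 on both days. Col1a1, the main collagen, stood at 5.18 on day 1 and 13.83 on day 4 (400-fold higher), Postn, periostin, at 4.81, 5.95 and 12.43, and Pdgfra, the receptor that defines these cells, at 3.52, 4.25 and 8.44. Of the late genes with the greatest differences, those outside the list are also matrix or stromal genes: Cilp (0.09, 2.05 and 9.38), Sfrp2 (0.66, 3.12 and 9.08), Sfrp1 (0.83, 2.27 and 8.92) and Eln, elastin (1.21, 3.11 and 9.02). The summed fibroblast level was 5025, 7408 and 93435 normalised reads on days 1, 2 and 4, against 5546 and 24884 in the Ly6C low columns. All 16 endothelial markers were higher as well (Cdh5 at 7.85, 7.67 and 10.56), with sums of 1784, 1865 and 9603, and so were all 10 mural markers (Pdgfrb at 6.06, 5.62 and 9.22), with sums of 666, 606 and 4541. In the Ly6C low columns the endothelial sum stayed at 1121 and 1733. T and NK cell markers summed to 53, 102 and 614, of which Cd4 (4.27, 5.17 and 8.55), which macrophages can also carry, was the main part, and Cd3e was at 1.58, 2.29 and 4.29. Muscle markers summed to 51, 32 and 397, with Pax7 and Myod1 listed at 0 on days 1 and 2 and at 1.41 and 2.00 on day 4. B cell markers summed to 187, 344 and 1386, mostly Ighm (6.80 on day 1 and 10.23 on day 4). Of mast cell and eosinophil markers 1 of 13 could be compared, Cma1 (2.20, 3.07 and 5.24). Of 6 erythroid and platelet genes 5 were lower. Most of that list's sum came from the platelet chemokine genes Pf4 (14.01 on day 1 and 11.18 on day 4) and Ppbp (13.81 and 6.54). Fewer cells of a type and less RNA per cell cannot be told apart in sorted bulk samples, and how much of the second step these cells made was not tested.

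Neutrophil markers ran the other way, with 9 of 12 lower and none higher and a summed level of 11007, 7086 and 3479, against 122384 in the column labelled neutrophils of day 1. That column held neutrophil markers (S100a8 at 14.35 and Cxcr2 at 12.37), but Ly6g, which defines mouse neutrophils, was at only 3.48. Macrophage markers stood there near their levels in Ly6C high cells of day 1: Csf1r at 13.27 against 13.52, Cd68 at 13.29 against 13.44, and Emr1, the F4/80 gene, at 12.22 against 12.34. Its markers thus go in part against its label, and its values are not read as levels of pure neutrophils. S100a9 stood at 9.64, 7.36 and 5.04 and S100a8 at 9.34, 7.59 and 5.64, while Ly6g was listed at 0 in all Ly6C columns. In the column labelled neutrophils Il1a was at 14.21, Ptgs2 at 14.76, Cxcl2 at 17.03 and Cxcl3 at 12.75, so the first 3 were higher there than in Ly6C high cells of day 1, at 12.15, 14.58 and 15.40. The part of neutrophil RNA in the lower inflammatory genes was not tested. Arg1, at 11.22 in that column against 14.86, and Ccl2, at 10.75 against 13.80, were lower there than in the day 1 macrophages.

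**Figure D5:**
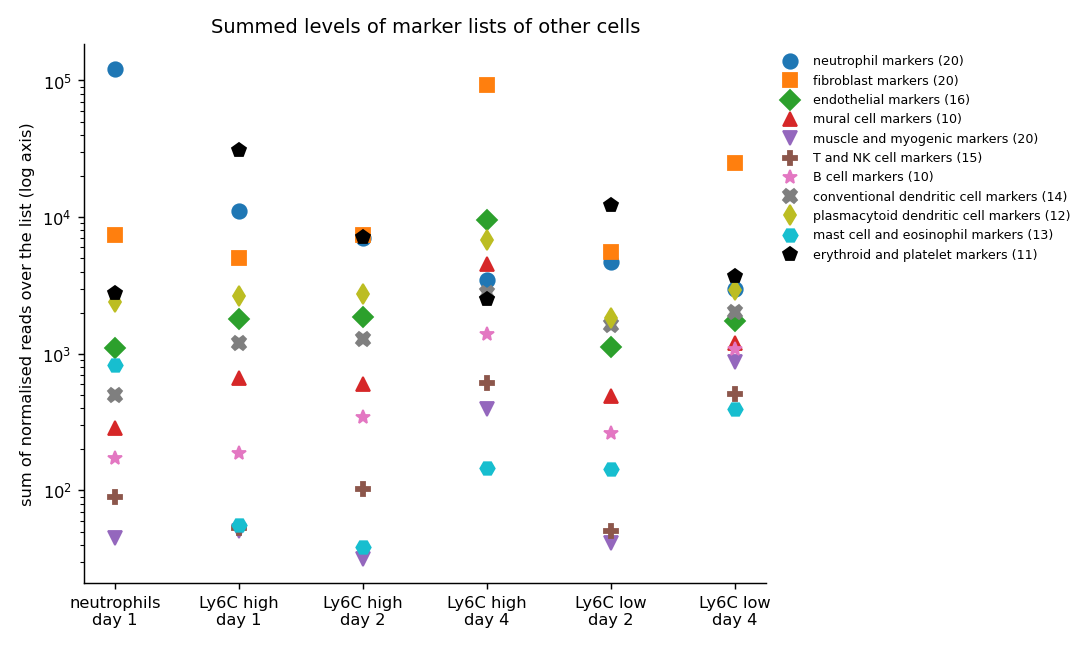
Sum of normalised reads over each list of markers of other cells, on a log axis, in the 6 columns of the table (number of genes in brackets); each point is a sum over group means. The fibroblast sum is 93435 in Ly6C high cells of day 4 and between 5025 and 24884 in all other columns, and the neutrophil sum is 122384 in the column labelled neutrophils and 11007 or less in macrophages.

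The second step could be set beside the same interval in Ly6C low macrophages, whose columns the day 4 against day 1 difference does not use, although the labels do not say whether the same animals gave both fractions. In Ly6C low cells 9.23% of 11824 genes were at least 2-fold higher on day 4 than on day 2 and 2.16% lower. Of the 2182 genes higher in Ly6C high cells, 1595 could be compared, and 821 (51.5%) were higher and 6 lower. Of the 492 lower genes 434 could be compared, and 156 (35.9%) were lower and none higher. These shares were above those of all genes, but the filter sets part of this. A gene under 5 on day 2 in Ly6C low cells could be compared only by being high there on day 4, which fixes its direction. How many of the 821 entered in this way was not counted. Of the 2182, 1231 had passed the first filter through day 4 alone. The shares differed by step: 5 of 55 first-step higher genes (9.09%) were higher in Ly6C low cells, against 538 of 838 second-step genes (64.2%). Gpnmb (10.91 and 11.67), a first-step gene in Ly6C high cells, and Pparg (8.14 and 8.45), a shared one, differed by less than 2-fold there, whereas Cxcl9 (1.88 and 6.92) and Gdf15 were higher over the same days in both. Fibroblast markers were higher in Ly6C low cells too (18 of 20), and the difference between the shares was not tested.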

How the data were processed

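Poly-A RNA of cells sorted from injured muscle was sequenced after TruSeq library preparation, as the labels' protocols say. TopHat2 2.0.7, Cufflinks 2.0.2 and build mm10 are named by the submitters' processing notes. The sources used here do not say how reads were normalised or whether strand was used. The authors deposited a table of log2 values, 1 column per group mean (6 columns, 38087 genes), so no test over samples could be run: the limma fit foreseen for single samples was not run, and no p-values are given. Differences are plain subtractions of log2 group means over genes with a value of at least 5 on day 1 or day 4, with 2-fold (log2 1) as the size used for counts. Counting error at a log2 value of 5, taken from the size of the lowest steps between values, was 12.8% to 14.5% per library, and covers counting only. Gene classes and coordinates are from GENCODE M21 (GRCm38), which held 95.3% of the gene IDs, and promoter windows from RefSeq (GRCm38.p6). The step rule was tested on simulated data.

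The genes described and the 50 gene lists were chosen with earlier results of these data known. By rule, the text draws on Igf1, Gdf15, Il1a, Ptgs2 and Pparg, the 5 genes of each direction and step class with the largest difference among well expressed protein-coding genes, up to 4 genes per direction whose steps go opposite ways, up to 4 members of each list, and defining markers of other cells. Other genes named are list members shown for contrast, chosen after their values were seen, and some list members are not reported here. Alternatives were another scaling (median-ratio, quantile), filter, pseudocount, class bound and gene class. The software was Python 3.11.15, pandas 2.3.3, numpy 2.4.6 and matplotlib 3.10.9.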

Additional observations from a re-analysis of the deposited data

How the results depend on the processing

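No paired analysis was possible because the table holds group means and no single sample, and for the same reason no replicate could be left out. The count of higher genes (2182) moved most with the filter, to 951 with a value of at least 5 on both days, 1065 with at least 7 on 1 day and 4682 with none. The lower genes (492) became 1034 after quantile normalization, which also changed the share made in the first step to 4.65% of higher genes and 3.09% of lower genes, the shared part of lower genes to 23.1%, and the genes lower in both populations from 156 to 267 (an alternative chosen after seeing the data). Class bounds of 1/4 and 3/4 gave 1.60% first-step and 38.5% shared among higher genes, and 5.28%, 57.9% and 36.8% for first step, shared and second step among lower genes; with 4-fold differences alone, 1.92% of higher genes were first-step. Under the bounds of 1/4 and 3/4, the first-step genes Il1a, Slc7a11, Atp6v0d2, Bhlhe41 and Cadm1, with first-step shares of 0.67 to 0.69, would be shared. Lists with over 50% of members lower went from 4 to 2 without a filter. The other counts stayed within 1.5 times of those given. Of 365 list medians recomputed, 13 moved by more than 1.5-fold and 0 changed sign from a value past 2-fold; of 740 differences of named genes, 65 moved and 0 reversed. Counting error limits genes near a value of 5.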

Other observations

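The row AC136976.2 had 6.66 in the neutrophil column and 6.18 and 7.72 in the Ly6C high columns of the first days, but was listed at 0 in the day 4 Ly6C high column and in both Ly6C low columns. It was the only row at 5 or more in the first 3 of these columns and at 0 in the others, and it was chosen after its values were seen. The rows 2010005H15Rik at 7.70, 6.26 and 1.37 and A930015D03Rik at 5.77, 5.64 and 1.02 on days 1, 2 and 4, were also far lower in Ly6C high cells of day 4.

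By gene class, 2104 of 10809 protein-coding genes (19.5%) were higher and 406 (3.76%) lower on day 4. Of 1036 processed pseudogenes, 15 were higher (1.45%, against 17.6% of all genes) and 50 lower (4.83%, near the 3.97% of all genes). They thus differed from other genes in having few higher members. Reads of a pseudogene cannot be told from those of its parent gene where their sequences match.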
